A study of Homo sapiens with 8 samples.

Results

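The glutathione peroxidases, superoxide dismutases and catalase are the enzymes that turn superoxide and peroxides into water, oxygen or alcohols. All rows of the deposited count table that carry the symbol GPX1, GPX2, GPX3, GPX4, GPX7, GPX8, SOD1, SOD2, SOD3 or CAT were taken, which gave 10 genes of 57169. The series measured polyadenylated RNA in HCT116 and SW620, both human colorectal carcinoma lines, after 24 hours with AFZC or with 5-FU, each at its IC50 dose for that line. AFZC is the nanodrug of the series title, a metal-organic framework bearing an aptamer and loaded with 5-fluorouracil (5-FU). 5-FU alone is the free drug, whose metabolite inhibits thymidylate synthase. The 4 groups were SW620 with AFZC, SW620 with 5-FU, HCT116 with AFZC and HCT116 with 5-FU, with 2 libraries each. Every treatment change below is AFZC relative to 5-FU, since untreated cells were not analysed here. The labels do not state whether replicate libraries were grown as separate cultures, so each p-value reflects library-to-library spread that could be purely technical.

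Superoxide dismutases convert superoxide to hydrogen peroxide, SOD1 in the cytosol with copper and zinc, SOD2 in mitochondria with manganese, and SOD3 outside the cell. Catalase breaks down hydrogen peroxide in peroxisomes, and glutathione peroxidases reduce it with glutathione or, for some members, with other thiols. GPX1 is the widespread cytosolic form, GPX2 the form of gastrointestinal epithelium, GPX3 the secreted plasma form, and GPX4 the form that reduces phospholipid hydroperoxides in membranes and so restrains ferroptosis. GPX7 and GPX8 reside in the endoplasmic reticulum. The catalytic residue divides the family, and the codon that encodes it is shown here in capitals within 27 bases of coding sequence from GENCODE release 29 transcripts.
GPX1: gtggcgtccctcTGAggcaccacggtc
GPX2: gtggcttcgctcTGAggcacaaccacc
GPX3: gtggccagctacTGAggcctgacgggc
GPX4: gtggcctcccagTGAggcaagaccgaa
GPX7: gtggccagcgagTGCggcttcacagac
GPX8: gtggccagtgacTGCcaactcacagac
In GPX1, GPX2, GPX3 and GPX4 the codon is an in-frame TGA, annotated as selenocysteine and numbered 49, 40, 73 and 73 from the first codon of the chosen transcripts. In GPX7 and GPX8 it is TGC, a cysteine codon, at codons 57 and 79. The first 4 genes therefore need the selenocysteine insertion machinery for a full-length protein, and the other two do not.

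The promoters of GPX2, GPX3 and GPX8 are shown because these are the genes whose RNA differed between the treatments in SW620. Each window runs from 250 bases before to 50 bases after the annotated start, is taken from RefSeq on GRCh38.p14 and is written 5′ to 3′ on the gene's strand. Capitals mark matches, on either strand, to the antioxidant response element core TGACNNNGC and to the Sp1 box GGGCGG.
GPX2 promoter, chr14:64942696-64942995, minus strand: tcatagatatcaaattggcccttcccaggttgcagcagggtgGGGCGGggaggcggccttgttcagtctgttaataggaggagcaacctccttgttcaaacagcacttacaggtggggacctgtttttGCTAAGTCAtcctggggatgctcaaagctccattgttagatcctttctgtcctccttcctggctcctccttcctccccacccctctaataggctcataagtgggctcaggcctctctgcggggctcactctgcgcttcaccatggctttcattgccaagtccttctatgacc
GPX3 promoter, chr5:151020341-151020640, plus strand: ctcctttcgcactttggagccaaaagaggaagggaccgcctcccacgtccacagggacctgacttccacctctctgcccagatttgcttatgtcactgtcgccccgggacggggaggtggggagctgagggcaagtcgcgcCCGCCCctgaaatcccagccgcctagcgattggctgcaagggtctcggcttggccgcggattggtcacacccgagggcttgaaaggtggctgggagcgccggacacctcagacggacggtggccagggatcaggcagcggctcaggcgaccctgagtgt
GPX8 promoter, chr5:55159921-55160220, plus strand: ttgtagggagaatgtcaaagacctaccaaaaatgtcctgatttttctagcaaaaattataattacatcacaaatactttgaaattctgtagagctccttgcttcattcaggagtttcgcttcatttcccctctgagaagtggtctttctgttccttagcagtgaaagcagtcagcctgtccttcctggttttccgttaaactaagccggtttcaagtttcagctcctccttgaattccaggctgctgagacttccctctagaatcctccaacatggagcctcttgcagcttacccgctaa
The GPX2 window holds the antioxidant response element core, read as its reverse complement, at position -122 (the start counted as 0) and an Sp1 box at -208. GPX3 holds an Sp1 box at -109, and the GPX8 window holds neither. The promoter set has 14 windows for 9 of the 10 genes, and SOD1 has none. Among these the core occurs in GPX2 only, while 13.3% of all 35116 promoters of that length hold it. An Sp1 box occurs in 7 of the 9 genes (CAT, GPX1, GPX2, GPX3, GPX4, GPX7 and SOD2). The shares of all promoters count single windows, whereas a gene with several windows counts if any of them matches. By window, the Sp1 box occurs in 12 of the 14, against 45% of all promoters. SOD2 has 4 of these windows and GPX4 has 3, some of which overlap, so the windows are not independent. Of the other motifs searched on both strands, TGANTCA (AP-1) and TTTCCCGC (E2F) occur in none of the 9 genes and in 7.71% and 1.63% of all promoters. The metal response elements TGCACNC and TGCGCNC occur in 1 gene (SOD3) and in 3 genes (GPX1, GPX4 and SOD2). By window they occur in 1 and 4 of the 14, against 12.1% and 20% of all promoters.

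Library totals ran from 31991561 to 40590291 counts, which is similar depth for all groups. TMM scaling factors were 1.11 and 1.07 in SW620 with AFZC, 0.867 and 0.816 in SW620 with 5-FU, and 1.02 to 1.07 in HCT116. Levels are CPM, counts scaled to a library total of 1e+06 after that correction. Of the colon epithelial markers, EPCAM, CDH1, KRT8, KRT18, KRT20 and CDX2 had counts in every library, whereas VIL1 was at 0 to 1.96 CPM in HCT116. Leukocyte markers summed to at most 0.984 CPM in any library. COL1A1, a fibroblast collagen, stood at 19.2 to 58.2 CPM in all libraries and LUM at 20.9 to 43.2 CPM in SW620 alone, with DCN at 0.138 CPM or less.

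In SW620, 2 of the 10 genes were higher under AFZC than under 5-FU (GPX3 and GPX8) and 1 was lower (GPX2), and the 7 others did not pass the test (edgeR's quasi-likelihood test with Benjamini-Hochberg adjustment over all 21378 genes tested, threshold 0.05). Over all genes tested in SW620, 18.6% were called in either direction, 11.6% higher and 6.95% lower. Libraries of the treatments did not overlap for 5 of the 10 genes in the higher direction and 2 in the lower, against 31.4% and 28.4% of all genes tested. The median log2 fold change of the 10 genes was 0.20, against 0.03 over all genes tested. In this bulk RNA, fewer cells that carry a transcript and less of it per cell cannot be told apart.

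GPX2, the peroxidase of gut epithelium (chromosome 14, 64939152 to 64942905, minus strand), stood at 290.0 and 256 CPM in the SW620 libraries with AFZC, against 899 and 1202 CPM in those with 5-FU. Both AFZC libraries lay far below both 5-FU libraries. The group means were 273 ± 24.2 CPM with AFZC and 1050.0 ± 214 CPM with 5-FU (SD, n = 2 each), and the fitted log2 fold change was -1.94 ± 0.234 (SE, edgeR adjusted p = 0.000163). Colon epithelial markers moved with GPX2 in part. Of 7 markers in SW620, KRT8 and KRT18 were lower under AFZC (log2 fold changes -2.04 and -1.97), KRT20 was higher (3.15) and 4 did not pass the test. The summed level of the 7 was 4519 and 4038 CPM with AFZC and 12581 and 13754 CPM with 5-FU. Most of this sum was KRT8 and KRT18. KRT8 stood at 2229 and 1642 CPM with AFZC against 7580 and 8334 CPM with 5-FU. KRT18 stood at 836 and 841 CPM against 3208 and 3364 CPM. The part of these shifts in the fall of GPX2 was not tested.

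GPX3, the secreted peroxidase (chromosome 5, 151020438 to 151028993, plus strand), went the other way in SW620. It stood at 17.4 and 16.7 CPM in the libraries with AFZC, against 1.72 and 2.39 CPM in those with 5-FU. The groups did not overlap, and the AFZC libraries agreed closely. The log2 fold change was 3.05 ± 0.402 (SE, edgeR adjusted p = 0.000311), carried by 620 and 599 counts with AFZC and 50 and 79 counts with 5-FU. The vascular marker VWF, which is 1 of 2 endothelial markers examined, was also higher under AFZC in SW620 (log2 fold change 1.95, adjusted p = 0.000746), while PECAM1 did not pass the test. The 2 endothelial markers summed to 17.7 and 13.5 CPM with AFZC and 5.37 and 5.13 CPM with 5-FU, and their part in the rise of GPX3 was not tested.

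GPX8, the cysteine peroxidase anchored in the endoplasmic reticulum membrane (chromosome 5, 55160118 to 55167071, plus strand), was the other gene that rose in SW620. It had 112 and 239 counts (3.15 and 6.66 CPM) with AFZC, against 17 and 16 counts (0.585 and 0.483 CPM) with 5-FU. The groups did not overlap, although the AFZC libraries differed from each other by more than the 5-FU libraries did. The log2 fold change was 3.20 ± 0.368 (SE, edgeR adjusted p = 0.000116). GPX8 was still scarce in SW620 after this rise, below any HCT116 library. These 3 calls in SW620 held in every alternative tried, with log2 fold changes from -2.14 to -1.56 for GPX2, from 2.84 to 3.43 for GPX3 and from 2.56 to 3.65 for GPX8, and adjusted p-values of at most 0.00178, 0.00411 and 0.00384.

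**Figure D1:**
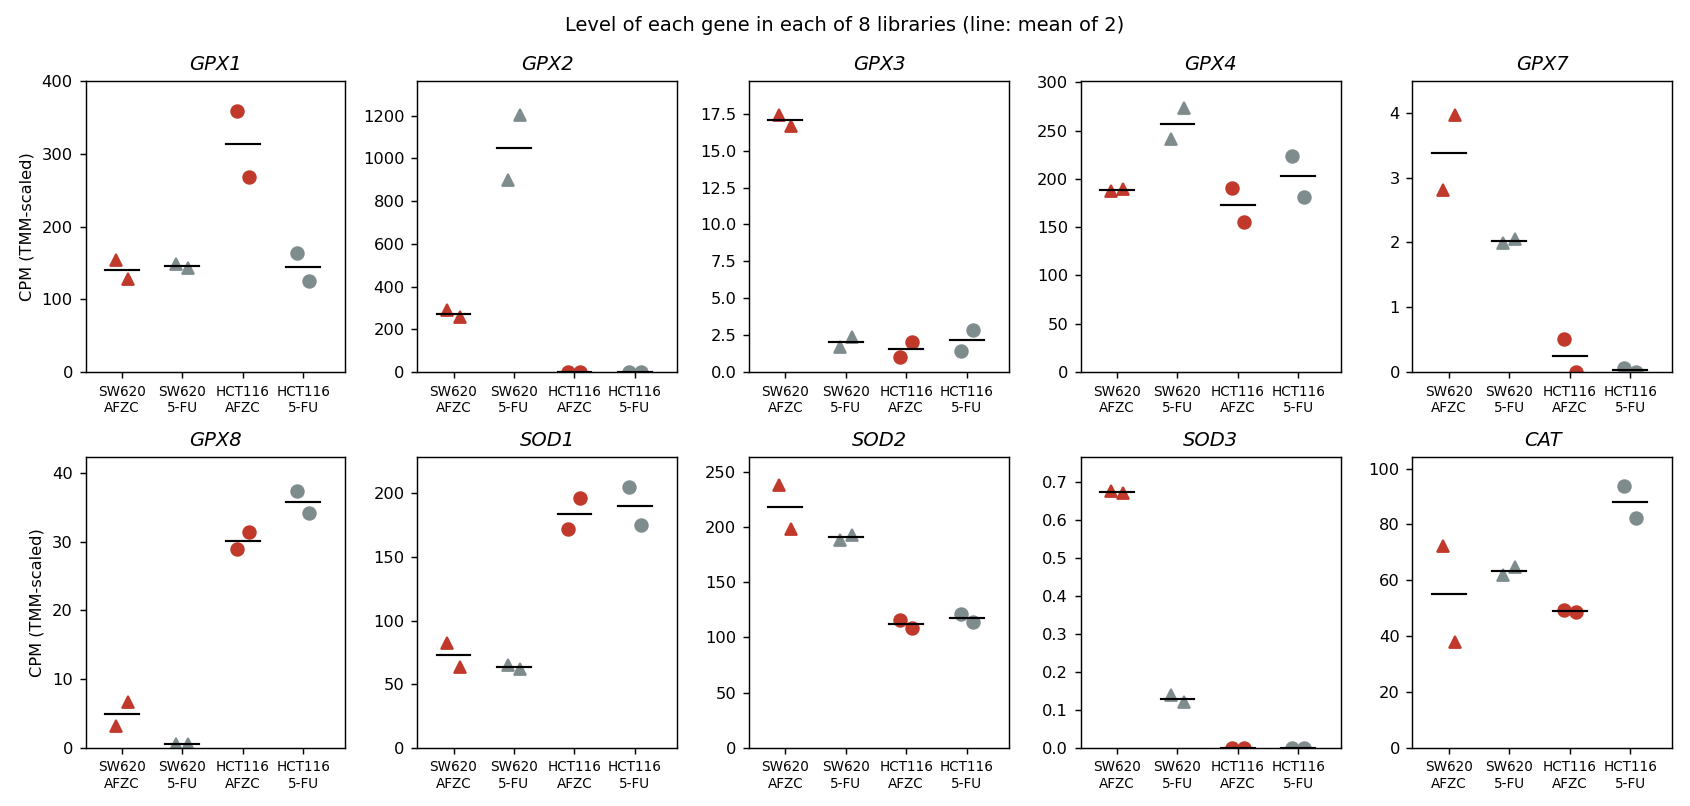
Level of each of the 10 genes (CPM scaled with TMM factors, linear axis from 0, own scale per gene) in the 8 libraries, as points, with the mean of each group as a line; red marks AFZC, grey 5-FU, triangles SW620 and circles HCT116. GPX2 reaches 1202 CPM in SW620 with 5-FU and stays under 0.6 CPM in HCT116, GPX3 stands apart in SW620 with AFZC, and GPX1 stands apart in HCT116 with AFZC.

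The remaining peroxidases did not pass the test in SW620. GPX1, the cytosolic form (chromosome 3, 49357171 to 49358600, minus strand), stood at 154 and 127 CPM with AFZC and 148 and 143 CPM with 5-FU, with overlapping libraries (log2 fold change -0.05 ± 0.188, edgeR adjusted p = 0.893). GPX4, the phospholipid hydroperoxidase (chromosome 19, 1103926 to 1106791, plus strand), stood at 188 and 189 CPM with AFZC and 242 and 273 CPM with 5-FU. Both AFZC libraries of GPX4 lay below both 5-FU libraries, but the change missed the threshold (log2 fold change -0.45 ± 0.168, edgeR adjusted p = 0.0812). Over the alternatives tried, the GPX4 value ran from -0.53 to -0.07 and passed in none. GPX7, the soluble endoplasmic reticulum form (chromosome 1, 52602372 to 52609051, plus strand), had 100 and 142 counts with AFZC and 58 and 68 with 5-FU (log2 fold change 0.74 ± 0.738, edgeR adjusted p = 0.533).

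Among the dismutases of SW620, SOD1 (chromosome 21, 31659622 to 31668931, plus strand) stood at 82.7 and 63.2 CPM with AFZC and at 65.0 and 61.6 CPM with 5-FU. SOD2 (chromosome 6, 159669057 to 159762529, minus strand) stood at 238 and 198 CPM with AFZC and at 189 and 193 CPM with 5-FU. The SOD1 libraries overlapped between treatments and the SOD2 libraries only just did not, and neither gene passed the test (log2 fold changes 0.21 ± 0.169 and 0.19 ± 0.150, edgeR adjusted p = 0.434 and 0.406). SOD3, the extracellular form (chromosome 4, 24789912 to 24800842, plus strand), had 24 and 24 counts with AFZC and 4 and 4 counts with 5-FU, groups that do not overlap. Its log2 fold change of 2.35 ± 0.914 missed the threshold at this depth (edgeR adjusted p = 0.0994), and it passed in a fit of the 4 SW620 libraries alone (adjusted p = 0.0456).

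Catalase in SW620 depended on the library. CAT (chromosome 11, 34438925 to 34472062, plus strand) stood at 72.4 and 37.8 CPM with AFZC and at 62.1 and 64.7 CPM with 5-FU. The AFZC libraries lay on either side of the 5-FU libraries, and the log2 fold change was -0.20 ± 0.237 (edgeR adjusted p = 0.607). Without AFZC replicate 1 it was -0.74 (adjusted p = 0.0177), and without AFZC replicate 2 it was 0.19 (adjusted p = 0.513).

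The scale of the SW620 comparison depends on the scaling factors. With library totals alone in place of TMM factors, the median log2 fold change of all genes tested in SW620 shifted from 0.03 to 0.40, and calls went to 5141 higher and 445 lower in place of 2482 and 1486. SOD1 and SOD2 then passed as higher (log2 fold changes 0.58 and 0.57, against that median of 0.40, adjusted p = 0.0277 and 0.0151), and GPX1 and CAT changed sign (0.32 and 0.18, both not passing). GPX2, GPX3 and GPX8 kept their calls.

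**Figure D2:**
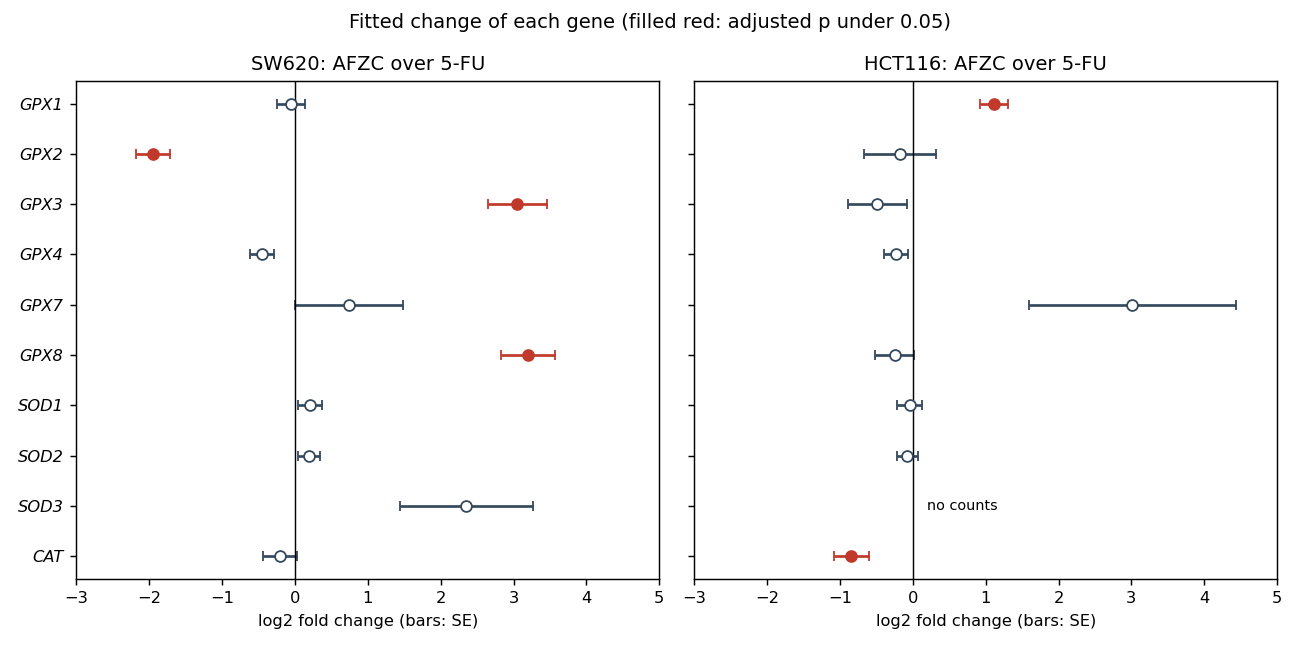
Fitted log2 fold change of AFZC over 5-FU for each gene, with bars of 1 SE, in SW620 (left) and HCT116 (right); filled red points passed an adjusted p of 0.05. GPX3 and GPX8 lie to the right and GPX2 to the left in SW620, GPX1 to the right and CAT to the left in HCT116, and SOD3 had no counts in HCT116.

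In HCT116, 9 of the 10 genes had counts in the treatment comparison, of which GPX1 was higher under AFZC than under 5-FU, CAT was lower and 7 did not pass the test. Over all genes tested in HCT116, 9.61% were called in either direction, 5.87% higher and 3.74% lower. Libraries did not overlap for 1 gene in the higher direction (GPX1) and 2 in the lower (CAT and GPX8), against 28.1% and 27.4% of all genes tested. The median log2 fold change of the 9 genes was -0.17, against 0.00 over all genes tested.

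GPX1 stood at 359 and 268 CPM in the HCT116 libraries with AFZC, against 164 and 126 CPM in those with 5-FU. The groups did not overlap, with means of 313 ± 64.2 CPM with AFZC and 145 ± 27.2 CPM with 5-FU (SD, n = 2 each). The log2 fold change was 1.11 ± 0.190 (SE, edgeR adjusted p = 0.00375). Without replicate 2 of 5-FU it was 0.91 and lost the call (adjusted p = 0.0617). Among the 7 epithelial markers in HCT116, VIL1, which was at or near 0, was called higher and no other passed the test. Their summed level was 5433 and 3391 CPM with AFZC and 3213 and 2602 CPM with 5-FU, higher with AFZC without overlap. Most of this sum was KRT8, at 3842 and 2311 CPM with AFZC and 2068 and 1678 CPM with 5-FU. KRT8 itself did not pass the test (edgeR adjusted p = 0.0994). The part of these levels in the rise of GPX1 was not tested.

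CAT stood at 49.4 and 48.8 CPM in HCT116 with AFZC, against 93.8 and 82.5 CPM in HCT116 with 5-FU. Both AFZC libraries lay well below both 5-FU libraries, and the log2 fold change was -0.84 ± 0.238 (SE, edgeR adjusted p = 0.0446). The call was close to the threshold. It was lost with library totals alone (adjusted p = 0.0555), without either SW620 library of 5-FU (adjusted p = 0.064 each), and without any HCT116 library, namely AFZC replicate 1 (0.18), AFZC replicate 2 (0.115), 5-FU replicate 1 (0.27) and 5-FU replicate 2 (0.125). The value itself stayed between -0.95 and -0.75 in all settings.

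The other genes in HCT116 either overlapped between treatments or missed the threshold. GPX4 stood at 191 and 155 CPM with AFZC and 224 and 181 CPM with 5-FU (log2 fold change -0.23 ± 0.168, edgeR adjusted p = 0.446). GPX8 was plentiful in this line, at 28.9 and 31.5 CPM with AFZC and 37.4 and 34.3 CPM with 5-FU, and its change of -0.25 ± 0.270 did not pass (adjusted p = 0.637). SOD1 and SOD2 had log2 fold changes of -0.04 ± 0.167 and -0.07 ± 0.150 (edgeR adjusted p = 0.923 and 0.834). The smallest differences in HCT116 were thus those of the cytosolic and mitochondrial dismutases.

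GPX2, GPX3 and GPX7 were scarce in HCT116. GPX2 had 10 and 16 counts with AFZC and 7 and 21 with 5-FU, and GPX3 had 39 and 73 with AFZC and 50 and 101 with 5-FU. Both overlapped between treatments (edgeR adjusted p = 0.891 and 0.508). GPX7 had 19 and 0 counts with AFZC and 2 and 0 with 5-FU, so all of its AFZC counts were in replicate 1. The ratio of pooled counts was 9.05, with a 95% exact binomial interval of 2.18 to 80.1 that covers counting error only, and the change did not pass the test (edgeR adjusted p = 0.218), though it did without AFZC replicate 2 (0.0131). SOD3 had 0 counts in all 4 HCT116 libraries, which at 3 counts allows up to 0.0794 to 0.0864 CPM per library.

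The effect of AFZC differed between the lines for 3 of 9 genes by a test of the difference itself, SW620 minus HCT116. GPX3 (difference 3.54 ± 0.563 on the log2 scale, SE, edgeR adjusted p = 0.00246) and GPX8 (3.45 ± 0.460, adjusted p = 0.000811) were higher, and GPX1 (-1.17 ± 0.266, adjusted p = 0.0165) was lower. Over all genes tested, 9.78% were called for this difference, 5.65% higher and 4.14% lower. For GPX2 the difference of -1.77 ± 0.555 missed the threshold (adjusted p = 0.0629), with 28 or fewer pooled counts per HCT116 group behind it. It passed with DESeq2 (0.00484) and without a filter on low counts (0.000724). It also passed without HCT116 5-FU replicate 2 (-2.72), and in no other fit with a library left out. Without HCT116 5-FU replicate 1 the GPX2 difference was -1.21. The GPX1 difference was lost with library totals alone (-0.81, adjusted p = 0.0587) and without HCT116 5-FU replicate 2 (-0.96, adjusted p = 0.0916). For CAT the difference was 0.64 ± 0.335 (adjusted p = 0.261). It was 1.06 without SW620 AFZC replicate 2 and 0.13 without SW620 AFZC replicate 1, so it depended on the library.

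The lines themselves differed widely in these genes. Under AFZC, 5 of 10 genes were higher in SW620 than in HCT116 (GPX2, GPX3, GPX7, SOD2 and SOD3) and 3 were lower (GPX1, GPX8 and SOD1), where 49.3% of all genes tested were called, 25.1% higher and 24.2% lower. Under 5-FU, 4 were higher in SW620 (GPX2, GPX7, SOD2 and SOD3) and 2 lower (GPX8 and SOD1), where 54.8% of all genes tested were called, 26.5% higher and 28.2% lower. The count of 6 of 10 under 5-FU is near the share of all genes, and that of 8 of 10 under AFZC is above it. Libraries of the lines did not overlap for 5 genes in the higher and 3 in the lower direction under each drug, against 37.2% and 37.2% of all genes under AFZC and 39% and 41% under 5-FU.

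GPX2 showed the widest fitted gap of the 9 genes with counts in both lines. Its log2 fold change of SW620 over HCT116 was 9.58 ± 0.364 under AFZC (SE, edgeR adjusted p = 1.15e-09) and 11.35 ± 0.378 under 5-FU (adjusted p = 3.16e-10). GPX8 ran the other way, at -2.62 ± 0.294 under AFZC (adjusted p = 1.02e-05) and -6.07 ± 0.374 under 5-FU (adjusted p = 3.83e-08). The cytosolic and mitochondrial dismutases were opposed under both drugs. SOD1 was lower in SW620 (-1.34 ± 0.171 under AFZC and -1.59 ± 0.172 under 5-FU), and SOD2 was higher (0.96 ± 0.151 under AFZC and 0.70 ± 0.150 under 5-FU), with adjusted p-values of at most 0.00166.

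GPX1 and GPX3 separated the lines only under AFZC by the test. GPX1 was lower in SW620 under AFZC (-1.16 ± 0.190, edgeR adjusted p = 0.000251) and near 0 under 5-FU (0.01 ± 0.188, adjusted p = 0.974), and GPX3 was higher under AFZC (3.48 ± 0.410, adjusted p = 1.59e-05) and near 0 under 5-FU (-0.06 ± 0.399, adjusted p = 0.918). The change of these gaps between drugs is the difference tested above. GPX4 (0.12 ± 0.168 under AFZC and 0.34 ± 0.168 under 5-FU) and CAT (0.17 ± 0.237 and -0.48 ± 0.236) did not pass under either drug. CAT passed under 5-FU without either SW620 AFZC library (-0.49 each). Under AFZC the CAT gap was 0.57 without SW620 AFZC replicate 2 and -0.37 without SW620 AFZC replicate 1. SOD3 had 48 counts in SW620 against 0 in HCT116 under AFZC, and 8 against 0 under 5-FU. Set against 3 counts over the HCT116 group, these are ratios of 16.5 and 3.02. Neither ratio allows for error in the SW620 counts, so neither is a lower bound. The SOD3 call under 5-FU (adjusted p = 0.0294) was lost in 6 of 8 fits without a library, where the adjusted p reached 0.112. GPX7 was higher in SW620 under AFZC (3.71 ± 0.876, adjusted p = 0.00439), a call that DESeq2 did not make (adjusted p = 0.0668). Without HCT116 AFZC replicate 1, which held all 19 counts of its group, the fitted value was 9.86, set against 0 counts and so no measure of size. For GPX7 under 5-FU there were 126 counts in SW620 against 2 in HCT116, a ratio of 71.3 with a 95% interval of 19.3 to 595.

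To compare levels between genes, CPM were divided by the exon length of the deposited table in kilobases. GPX2 led all 10 genes in SW620, at 182 ± 16.1 CPM per kilobase with AFZC and 700.5 ± 143 with 5-FU (SD, n = 2 each). GPX1 led in HCT116, at 219 ± 44.9 CPM per kilobase with AFZC and 101 ± 19.0 with 5-FU. In HCT116 with 5-FU, GPX1, GPX4 (100.5 ± 14.9 CPM per kilobase) and SOD1 (94.0 ± 10.4) did not differ beyond their spread. With the length of 1 annotated transcript per gene, chosen as an alternative after the data were seen, GPX1 ranked below GPX4 and SOD1 in that group. Below these, CAT lay at 13.7 to 24.6 CPM per kilobase over the 4 groups and SOD2 at 6.15 to 12.0. The deposited SOD2 length of 18206 bases includes a very long untranslated part, so its level per length is set low by it. SOD3 was the least abundant of the 10 in all 4 groups.

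The make-up of the peroxidase RNA changed with line and drug. GPX2 made up 48.1% and 47.0% of the summed peroxidase level per kilobase in the SW620 libraries with AFZC, against 72.7% and 77.1% in those with 5-FU. GPX1 made up 70.9% and 68.5% in the HCT116 libraries with AFZC, against 48.6% and 46.8% with 5-FU, and GPX4 filled most of the rest there (26.7% and 28.2% with AFZC, 47.0% and 47.8% with 5-FU). With the length of 1 transcript per gene these shares of GPX1 were 57.6% and 54.7% with AFZC and 34.4% and 32.8% with 5-FU. The sum itself was 402 and 363 CPM per kilobase in SW620 with AFZC, against 825 and 1039 with 5-FU. In HCT116 it was 354 and 273 with AFZC, against 236 and 188 with 5-FU. So the summed level was lower with AFZC in SW620 and higher with AFZC in HCT116 in these libraries, without overlap in either line, and in both lines the genes with a TGA codon held most of it. Of the cysteine peroxidases, GPX8 held at most 4.71% and GPX7 at most 0.645% in any library, and GPX8 at most 7.28% with the length of 1 transcript.

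**Figure D3:**
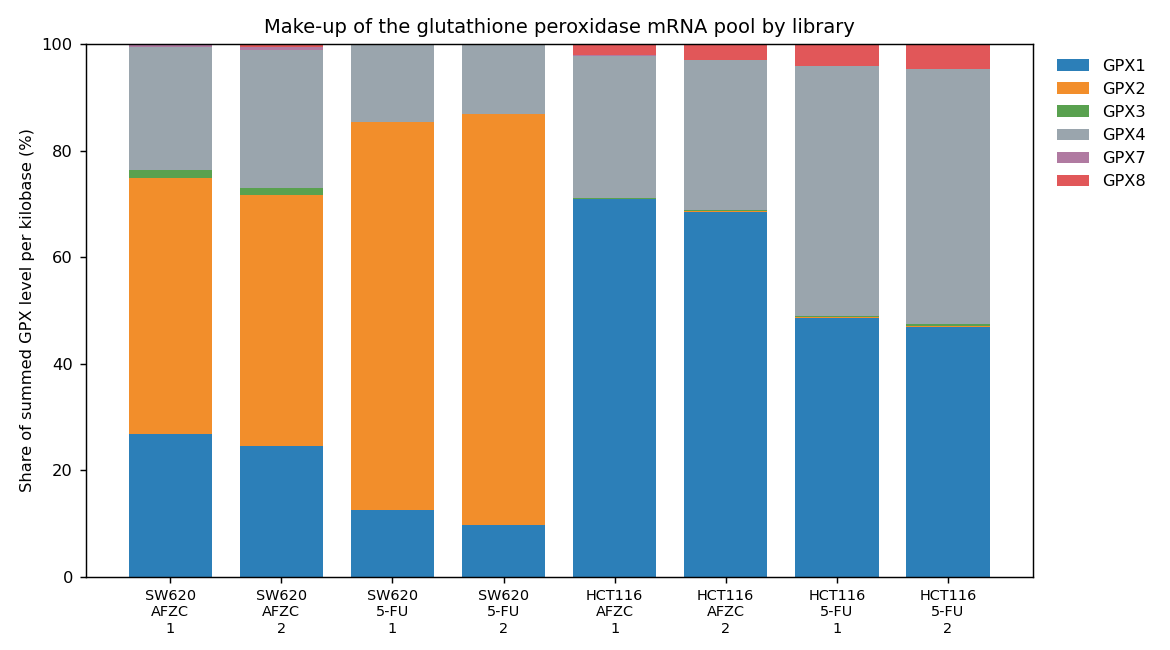
Share (%) of each glutathione peroxidase in the summed peroxidase level per kilobase, stacked for each of the 8 libraries. GPX2 takes 47.0% to 77.1% in SW620 and a trace in HCT116, where GPX1 and GPX4 take nearly all.

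Over the 8 libraries, the most alike of the 45 pairs of these genes on the log2(CPM + 1) scale were GPX3 and SOD3 (Pearson r = 0.958), GPX7 and SOD2 (0.945) and GPX2 and SOD2 (0.935). The most opposed were GPX2 and SOD1 (-0.983), GPX2 and GPX8 (-0.972) and GPX7 and SOD1 (-0.941). These coefficients are descriptions over libraries that fall into 2 cell lines. SOD3 was at 0 CPM in HCT116 and at most 0.675 CPM in SW620. In HCT116, GPX2 and GPX7 were at most 0.589 and 0.503 CPM, so coefficients of these 3 genes rest in part on values near the floor. GPX3 and SOD3, both encoding secreted enzymes, were also each at their highest in SW620 with AFZC.

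Around these enzymes, 93 genes in 8 lists were examined, of which 85 were tested. In SW620, 6 were higher and 11 lower under AFZC, which is 20% against 18.6% of all genes. In HCT116, 4 were higher and 4 lower, which is 9.41% against 9.61% of all genes. By direction the shares of all genes were 11.6% higher and 6.95% lower in SW620, and 5.87% higher and 3.74% lower in HCT116. GPX5 and GPX6, the remaining human peroxidase genes, had at most 2 counts and 0 counts in any library.

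Glutathione supply and recycling fell in part in SW620, with 0 of 11 genes higher and 4 lower, among them ME1, IDH1 and, outside the naming rule and seen afterwards, GSR, and a median log2 fold change of -0.42 against 0.03 for all genes. ME1 (-0.69) and IDH1 (-0.59), the cytosolic NADPH-forming malic enzyme and isocitrate dehydrogenase, lost their calls with library totals alone, and each also lost it without SW620 AFZC replicate 1 (adjusted p = 0.101 and 0.188) or either SW620 5-FU library. GSR (-0.48) lost its call with library totals alone, in a fit of SW620 alone, and without any SW620 library or either HCT116 5-FU library. With library totals alone, 1 of the 11 genes was higher and 1 lower. In HCT116, 0 of 11 of these genes passed the test in either direction.

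Selenoprotein synthesis had 1 gene higher and 4 lower of 10 in SW620, and 0 higher and 2 lower in HCT116, where 11.6% higher and 6.95% lower of all genes were called in SW620 and 5.87% and 3.74% in HCT116. With library totals alone the SW620 count turned to 3 higher and 1 lower. RPL30, a ribosomal protein that also binds the selenocysteine insertion element, was lower under AFZC in both lines, at 120.0 and 128 CPM with AFZC against 224 and 246 CPM with 5-FU in SW620, and at 145 and 162 CPM with AFZC against 274 and 237 CPM with 5-FU in HCT116. The groups did not overlap in either line (log2 fold changes -0.92 ± 0.154 and -0.73 ± 0.154, edgeR adjusted p = 0.00155 and 0.0108). In SW620, LRP8 (-0.80), a receptor for selenoprotein P, and SEPSECS (-0.74), which makes the selenocysteinyl tRNA, were also lower, together with SECISBP2 (-0.58), while SEPHS2 (0.60) was higher. LRP8, SEPSECS and SECISBP2 lost their calls with library totals alone. SECISBP2 also lost it without SW620 AFZC replicate 1 (adjusted p = 0.071) or either SW620 5-FU library (0.109 and 0.0936), and SEPHS2 without SW620 AFZC replicate 2 (0.166), SW620 5-FU replicate 2 (0.284) or HCT116 5-FU replicate 1 (0.0507). LRP8 also lost it without SW620 5-FU replicate 2 (adjusted p = 0.062), and SEPSECS without AFZC replicate 1 or either 5-FU library (up to 0.174). In HCT116 the other gene was EEFSEC (-0.82), the selenocysteine elongation factor. The RPL30 call held without any single library in SW620. In HCT116 the RPL30 and EEFSEC calls were lost without AFZC replicate 1 (adjusted p = 0.0744 and 0.207) and without 5-FU replicate 1 (0.133 and 0.26), and EEFSEC also without 5-FU replicate 2 (0.0835).

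**Figure D4:**
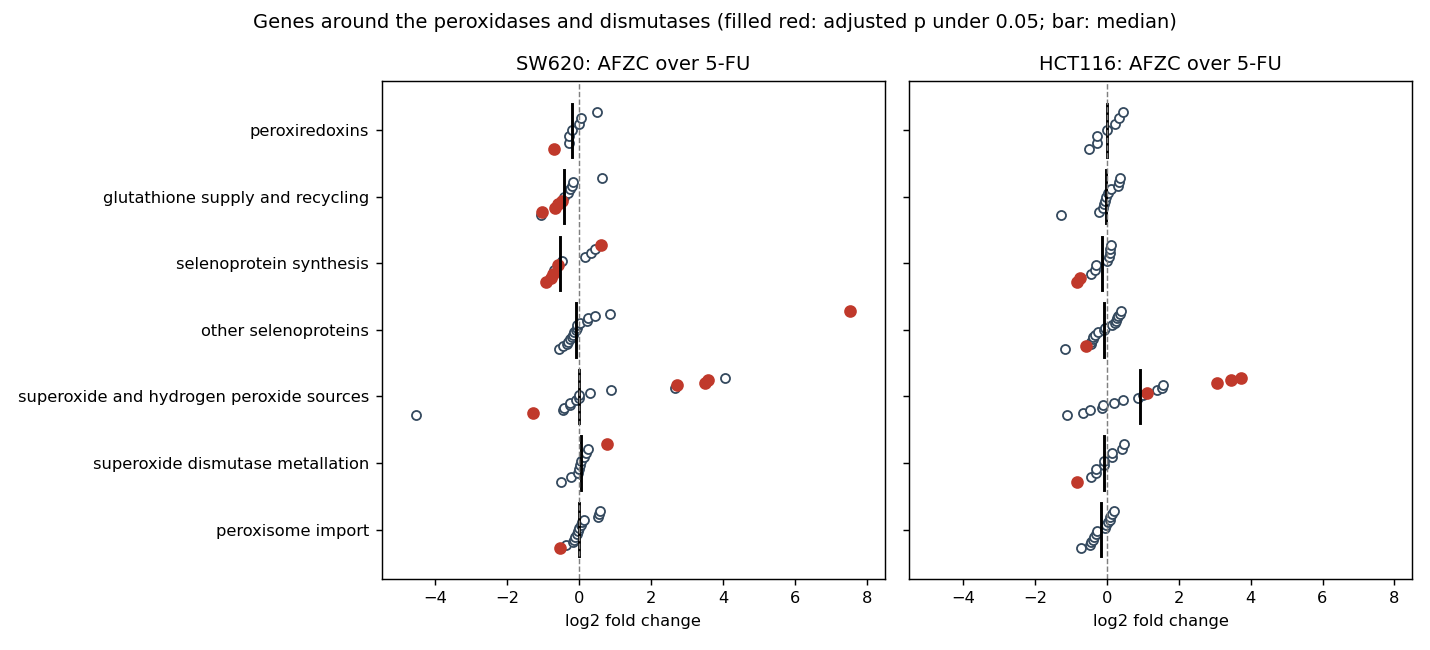
Log2 fold change of AFZC over 5-FU for each tested gene of 7 lists (the list of GPX5 and GPX6 had none), in SW620 (left) and HCT116 (right); filled red points passed an adjusted p of 0.05 and vertical bars are medians. In SW620, DIO1 (7.53) and CYBB (4.05) had 0 counts with 5-FU and DUOXA2 (-4.55) had 0 with AFZC, so their fitted places are no measure of size. The median for sources of superoxide and hydrogen peroxide is 0.93 in HCT116 and -0.01 in SW620, against 0.00 and 0.03 over all genes tested.

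Among sources of superoxide and hydrogen peroxide, 3 of 16 tested genes were higher and 1 lower in SW620, and 4 were higher and 0 lower in HCT116. Over all genes tested, 11.6% were higher and 6.95% lower in SW620, and 5.87% and 3.74% in HCT116. NCF4 (3.48), a cytosolic subunit of the phagocyte oxidase, and the oxidase NOX5 (3.58) were higher in SW620, where NOX5 rested on 30 pooled counts against 2, a ratio of 13.1 with a 95% interval of 3.31 to 113. AOX1 (3.45) and XDH (3.07), both molybdenum hydroxylases, were higher in HCT116. The HCT116 calls of AOX1 and XDH were lost without AFZC replicate 1 (log2 fold changes 2.65 and 2.17, adjusted p = 0.111 and 0.125) and without either 5-FU library (adjusted p from 0.0578 to 0.126). In SW620, NCF4 lost its call without 5-FU replicate 2 (0.0695), and NOX5 without SW620 AFZC replicate 1 (0.446), either SW620 5-FU library or either HCT116 5-FU library.

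DUOX1, an epithelial hydrogen peroxide generator named after its values were seen, was lower under AFZC in SW620 (7.54 and 3.60 CPM with AFZC against 11.4 and 15.5 CPM with 5-FU) and higher in HCT116 (57.8 and 48.8 CPM with AFZC against 22.3 and 27.0 CPM with 5-FU). Neither line's groups overlapped, and the difference of effects was -2.39 ± 0.412 (SE, edgeR adjusted p = 0.00443). The fall in SW620 lost its call without SW620 5-FU replicate 2 (adjusted p = 0.104), and the rise in HCT116 without AFZC replicate 1 (0.15) or either 5-FU library (0.253 and 0.123). SLC39A8, a manganese and zinc importer placed with the supply of metal to the dismutases, was opposed in the other sense. It was higher in SW620 (14.3 and 14.2 CPM with AFZC against 9.15 and 7.73 CPM with 5-FU) and lower in HCT116 (34.4 and 36.6 CPM with AFZC against 64.5 and 60.8 CPM with 5-FU), with a difference of 1.58 ± 0.238 (adjusted p = 0.00173). Without SW620 5-FU replicate 2 the rise in SW620 lost its call (adjusted p = 0.124), and the fall in HCT116 lost it without AFZC replicate 1 (0.0567) or either 5-FU library (0.117 and 0.057). SOD2, the manganese enzyme, did not pass the test in either line.

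The remaining lists held few calls within a line. Among peroxiredoxins, PRDX6 (-0.69) was lower in SW620 and 0 of 7 passed in HCT116. For the difference of effects between the lines, 1 of 7 was higher, where 5.65% of all genes tested were. Among other selenoproteins, SELENOO (-0.58) was lower in HCT116. The deiodinase DIO1 was called higher in SW620, on 47 pooled counts against 0. Set against 3 counts over the group, this is a ratio of 13.6, without allowance for error in the 47 counts. Of these counts 44 were in AFZC replicate 1, and DIO1 lost its call without that library or without either SW620 5-FU library. Of the peroxisome import genes, PEX2 (-0.54) was lower in SW620 and 0 of 14 passed in HCT116, where CAT itself was lower. PRDX6 lost its call without SW620 AFZC replicate 1 (adjusted p = 0.0902) or 5-FU replicate 2 (0.128), PEX2 without any SW620 library or HCT116 5-FU replicate 2, and SELENOO without any HCT116 library or either SW620 5-FU library. With library totals alone PRDX6 (-0.32, adjusted p = 0.156), PEX2 (-0.17, 0.462) and SELENOO (-0.55, 0.0573) lost their calls, and SELENOO also lost it without robust estimation (0.0543).

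Near-identical copies (pseudogenes) of the peroxidase, dismutase and catalase genes, and genes that overlap them, were also examined. How reads with several alignments were treated is not given. Low counts in pseudogene rows therefore cannot show how many reads were lost from the genes they resemble. The effect of such a loss on the levels and shares above was not tested. Of 6 pseudogene rows of these genes, GPX1P1 had 16 to 45 counts per library and SOD1P3 2 to 144, and the 4 others had 0. SOD1P3 had 15 and 28 counts with AFZC and 4 and 2 with 5-FU in SW620, and 53 and 144 with AFZC and 108 and 108 with 5-FU in HCT116, against 1888 to 7106 counts of SOD1 per library. The exons of SOD2 share 6.27% of their bases with ACAT2 and 2.40% with WTAP on the opposite strand, and 5.16% with SOD2-OT1 on the same strand, which had at most 1 count in any library. ACAT2 had 617 to 1513 counts and WTAP 1908 to 2514, and the libraries did not keep the strand, so reads there cannot be assigned to one gene. No exon of the 9 other genes overlapped another row of the table.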

How the data were processed

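The table deposited by the authors holds unnormalised read counts of 57169 gene symbols in 8 libraries, with exon coordinates and lengths, in the layout of featureCounts. The aligners HISAT2 and STAR, the counter featureCounts, the trimmers cutadapt and Trimmomatic, FastQC, edgeR, DESeq2 and the build GRCh38 are listed in the submitters' processing notes, without versions. Which aligner made the counts, and how reads with several alignments were treated, is not given in the sources used here. Per the labels' protocols, poly(A) RNA was selected and the strand was not kept. In each library 1.68 to 1.84 genes had 2 counts for every gene with 1. Counting both mates of a pair leaves such a pattern, so counting intervals, which cover counting error only, may be too narrow.

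The 10 genes, the lists around them and the markers were chosen with earlier results of these data known. Named list genes are, per treatment comparison, up to 3 called genes of each list with the largest change. DUOX1, GSR, SECISBP2 and SEPHS2 fall outside that rule and were named after their values were seen. Some list genes are not reported here. Counts were filtered (filterByExpr, minimum count 10), which left 21378 genes and all 10 members, scaled with TMM factors and fitted in 1 quasi-likelihood model with 4 group means (edgeR 4.0.16, R 4.3.3, limma 3.58.1), with 4 residual degrees of freedom and a common coefficient of variation of 19.9%. SE is the log2 fold change over the square root of F. Contrasts were two-sided, adjusted by Benjamini-Hochberg over all genes tested at 0.05. DESeq2 1.42.0 with its size factors was an alternative. Where a group is at 0, the other group is set against 3 counts, without error on its own counts. Intervals are 95% exact binomial. No library was a copy of its replicate, since their counts gave a chi-square of 20.9 to 51.5 for each degree of freedom. The steps were tested on simulated counts.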

Additional observations from a re-analysis of the deposited data

Results flagged for a closer look

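The effect of AFZC relative to 5-FU differed between SW620 and HCT116 for 3 of the 9 genes with counts in both lines, by edgeR's test of the difference itself. GPX3 differed by 3.54 on the log2 scale, GPX8 by 3.45 and GPX1 by -1.17. GPX3 and GPX8 were higher under AFZC in SW620 (3.05 and 3.20) and did not pass the test in HCT116 (-0.49 and -0.25). GPX1 did not pass in SW620 (-0.05) and was higher in HCT116 (1.11). Groups of 2 libraries are too small to look for a library that stands apart from its group.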

How the results depend on the processing

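Each result was recomputed with library totals alone, DESeq2, no filter on low counts, no robust estimation, a replicate block, the libraries of 1 line alone and each library left out. Of the members' fold changes, 236 kept direction and side of the threshold, 4 lost a call, 9 gained one and 8 changed sign, and 344, 14, 7 and 19 did so with a library left out. In SW620, library totals alone gave 4 members higher, and changed sign for GPX1 (0.32) and CAT (0.18). In HCT116 they gave 0 members lower, and no filter gave 2 higher, with GPX7 passing (adjusted p = 0.0254). For the difference between lines, members lower were 0 with library totals alone, and 2 with DESeq2, with no filter and with the replicate block, where GPX2 passed (-1.80 and adjusted p = 0.0357 with the block), and GPX4 changed sign (0.14) with library totals. Between the lines under 5-FU, GPX1 changed sign with library totals (-0.29), no filter (-0.00356) and the replicate block (-0.10), and GPX3 with the block (0.42). Under AFZC, GPX4 changed sign with the block (-0.0672). With the block, contrasts between the lines compare fitted levels of replicate 1 and not group means. The changes between the lines named for the block therefore do not measure an effect of pairing. That holds too for SOD3 between the lines under 5-FU, which lost its call (edgeR adjusted p = 0.144). The counts above include these contrasts. Within a line, the block ended the calls of NOX5 in SW620 (edgeR adjusted p = 0.0602) and SELENOO in HCT116 (0.0629). Same-numbered libraries showed no strong shared deviation (r = -0.0254 in SW620 and 0.0209 in HCT116). This cannot settle whether they were grown or prepared together, which the labels do not state. DESeq2 ended the GPX7 call between the lines under AFZC (adjusted p = 0.0668). Genes lower in HCT116 were 1306 and genes higher for the difference 1848 without a filter, and the difference gave 2455 higher and 430 lower with library totals, against 1207 and 884, with its median at 0.39 in place of 0.04. Under 5-FU, library totals moved the median between the lines from -0.04 to -0.34 and CAT passed (-0.78), as it did with no filter (-0.49, adjusted p = 0.0205). With a library left out, genes called ran from 1583 to 4437 in SW620, 305 to 2723 in HCT116 and 757 to 2460 for the difference. Counts fell past 1.5 times without SW620 5-FU replicate 1 (2327) or 2 (1583) or AFZC replicate 1 (2474) in SW620, and without HCT116 5-FU replicate 1 (305) or 2 (625) or AFZC replicate 1 (778) in HCT116. For the difference they did so without HCT116 5-FU replicate 1 (757) or 2 (996) or SW620 5-FU replicate 2 (1017). Members lower were 1 to 2 in SW620, and members higher 0 to 2 and lower 0 to 1 in HCT116. Signs changed for SW620 GPX1 (-0.19 to 0.0763) and CAT (-0.74 to 0.19), for HCT116 GPX2 (-0.74 to 0.78), GPX3 (-1.07 to 0.0645), GPX7 (-3.15 to 6.16) and SOD1 (-0.17 to 0.0723), and for GPX7 in the difference (-5.42 to 3.89). They also changed between the lines under AFZC for GPX4 (-0.00925 to 0.27) and CAT (-0.37 to 0.57), and under 5-FU for GPX1 (-0.19 to 0.21) and GPX3 (-0.46 to 0.49). With 1 library left in a group, that library is assumed to vary like the other groups. The cause of these changes was not tested. Depth limits SOD3, GPX7 and, in HCT116, GPX2 and GPX3.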
